A study of Mus musculus with 12 samples.

Results

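The genes described here are 7 regulators and matrix genes of osteoblasts, the cells that build bone, chosen by name: the transcription factors Runx2, Sp7 and Dlx5, the enzyme Alpl, the matrix proteins Postn and Sparc, and the collagenase Mmp13. Of the 7 genes, 6 had an array row, 1 each, among the 19938 genes measured. Runx2 was not analysed here. The tissue was whole marrow flushed from the long bones of B6 mice, read on 12 whole-transcript microarrays, 3 in each of 4 groups. Nonirradiated vehicle mice received vehicle from day 11 to day 15 of life, and nonirradiated PTH mice received parathyroid hormone (PTH) over the same 5 days. Irradiated vehicle and irradiated PTH mice were first given 2 sub-lethal fractions of 310 cGy at 10 days of age, with PTH begun 24 hours later. All marrow was taken at day 16, so every group is growing young bone, and for PTH neither dose nor daily schedule was stated in the labels. No label tells separate mice from pooled ones, and where arrays share a pool the p-values cover technical spread alone.

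Runx2 commits mesenchymal precursors to the osteoblast lineage, Sp7 (osterix) acts after it, and Dlx5 is a homeodomain factor that promotes both. Alkaline phosphatase, from Alpl, frees phosphate for mineral, Sparc (osteonectin) binds collagen and mineral, and periostin, from Postn, crosslinks matrix at the periosteum and at sites of remodelling. Mmp13 cuts fibrillar collagen and is made by osteoblasts, osteocytes and hypertrophic chondrocytes. PTH acts through a receptor on osteoblasts, and Mmp13 is among the best known genes that it induces there, through a Runx site and an AP-1 site near the start of the gene. Flushed marrow holds bone-lining cells as a small and variable part, so in these bulk samples fewer cells of a type and less RNA per cell cannot be told apart.

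The promoter of Mmp13 is shown because Mmp13 was the only one of the 6 measured genes that passed the test, and that of Postn because it had the largest difference with PTH after irradiation. Each run is the 250 bases before an annotated start, from RefSeq, build GRCm38.p6, plus strand, with motif matches in capitals. The Mmp13 run is chr9:7272264-7272513 and the Postn run is chr3:54360857-54361106.
Mmp13: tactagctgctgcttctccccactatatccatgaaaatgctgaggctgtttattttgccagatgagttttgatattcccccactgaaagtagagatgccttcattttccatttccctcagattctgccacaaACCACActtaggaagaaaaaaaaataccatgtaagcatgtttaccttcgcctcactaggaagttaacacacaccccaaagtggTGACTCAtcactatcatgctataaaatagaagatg
Postn: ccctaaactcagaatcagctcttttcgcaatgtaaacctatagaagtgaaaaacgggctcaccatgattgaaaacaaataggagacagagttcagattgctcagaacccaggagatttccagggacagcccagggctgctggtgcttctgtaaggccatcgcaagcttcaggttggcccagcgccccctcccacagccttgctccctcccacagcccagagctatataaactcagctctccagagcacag
Windows of 250 bases before to 50 after a start were searched on both strands for TGTGGT (the core bound by Runx factors), TGANTCA (AP-1) and TAATTA (homeodomain core), and the matches in Mmp13 do not overlap. In Mmp13 the capitals mark ACCACA, the Runx core on the opposite strand, from 118 to 113 bases before the start, and TGACTCA, an AP-1 match, from 35 to 29 bases before it. Of all 32851 promoter windows, 16.8% held the Runx core, 7.81% AP-1, 5.29% the homeodomain core, and 1.42% both the Runx core and AP-1. Both Postn windows and both Alpl windows held no match. Sparc held 1 Runx core and Runx2 held 3, with no AP-1 match in either. The table held windows for 5 of the 7 genes, Sp7 and Dlx5 being the other two. A match describes letters only.

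Values are log2 expression, so 1 unit is a doubling, and they compare arrays within a gene, not genes with each other. The interquartile range over genes was 2.63 in nonirradiated vehicle replicate 3 and 2.66 in irradiated PTH replicate 3, against 2.999 to 3.14 in the other arrays. By Xist and Kdm5d, 0 of 3 nonirradiated vehicle arrays, 3 of 3 nonirradiated PTH arrays and 1 of 3 arrays in each irradiated group had a female pattern. In nonirradiated mice, PTH and sex therefore cannot be told apart. Of genes that define bone cells and marrow, Col1a1, the main bone collagen, lay between 9.15 and 10.62, and the lowest means of the erythroid and neutrophil marker lists on any array were 11.13 and 10.89. These values are not set against each other. For the median gene, a difference between 2 groups carried a standard error of 0.166.

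**Figure D1:**
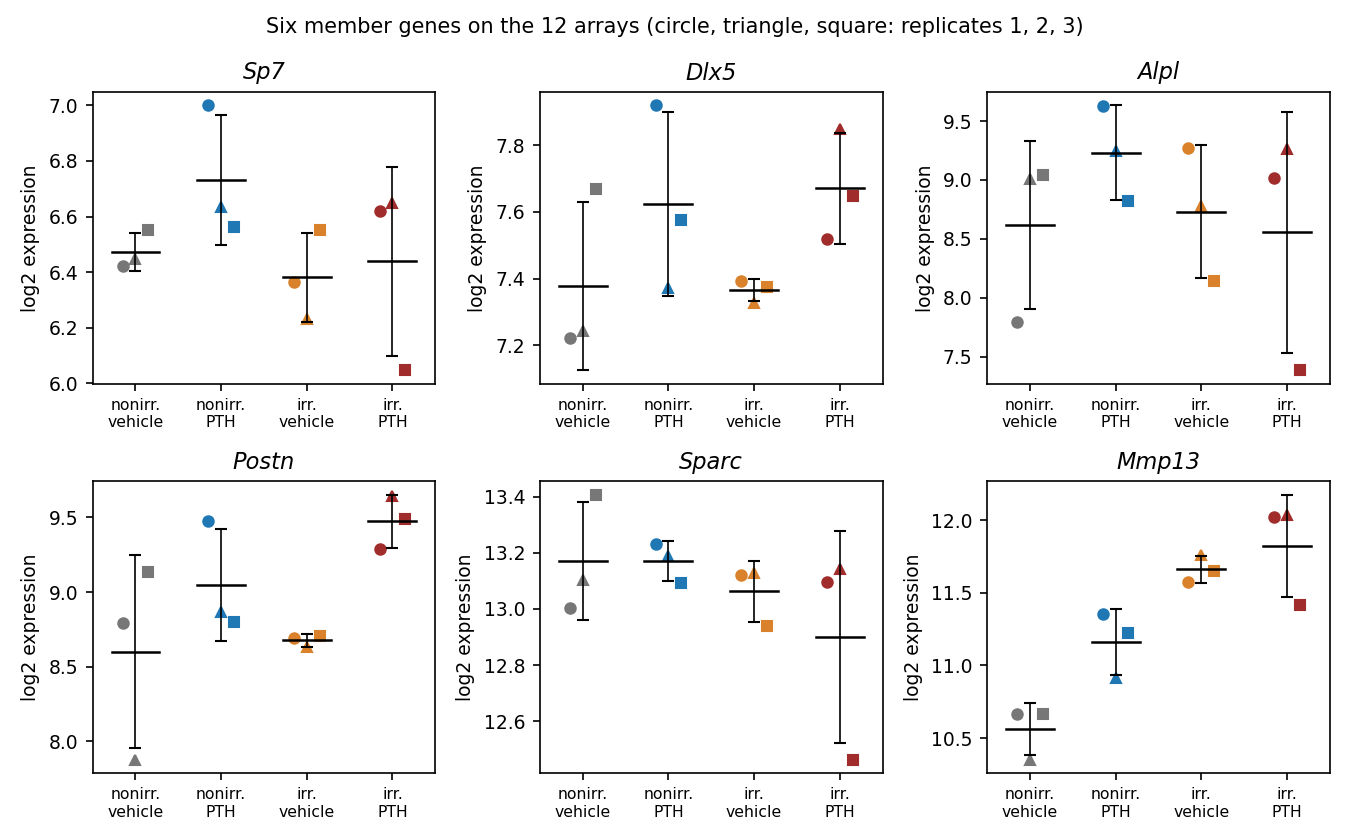
Log2 expression of the 6 measured genes on each array (vertical axis, own scale per gene) in the 4 groups (irr., irradiated), with the group mean and SD as black bars. Mmp13 steps up from 10.35 to 10.67 in nonirradiated vehicle marrow to 11.41 to 12.03 in irradiated PTH marrow, while in Alpl, Sparc and Sp7 the square of irradiated PTH replicate 3 lies below every other array.

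Mmp13, which encodes collagenase-3, rose with irradiation. It read 10.66, 10.35 and 10.67 on the 3 nonirradiated vehicle arrays and 11.57, 11.76 and 11.65 on the 3 irradiated vehicle arrays. The lowest irradiated array stood well above the highest nonirradiated one. The difference of 1.10 (SE 0.182), a 2.14-fold rise, had an adjusted p = 0.00761 (limma, adjusted by Benjamini-Hochberg over all genes, called where under 0.05). It was larger than the change of 99.3% of genes. Of all genes, 2.22% were called in this comparison in either direction and 1.21% higher, against 1 of the 6 measured members, and 8.95% had groups that did not overlap on the higher side.

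With PTH the irradiated arrays read 12.02, 12.03 and 11.41 for Mmp13 and the nonirradiated arrays 11.35, 10.91 and 11.22. The groups did not overlap, as in 8.93% of genes on the higher side, but irradiated PTH replicate 3 came close to the highest nonirradiated array. The difference of 0.66 (SE 0.182) did not pass in limma, with adjusted p = 0.0917. Without irradiated PTH replicate 3 it was 0.86 and passed, with adjusted p = 0.0145. Of all genes, 2.43% were called in either direction and 0.692% higher here. Averaged over both treatments the rise was 0.88 (SE 0.128, adjusted p = 0.00134 in limma), a 1.84-fold rise, in a comparison that called 6.1% of genes in either direction and 2.51% higher.

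Within 1 sex pattern, the Mmp13 difference with irradiation could be read only among male-pattern arrays of vehicle mice and female-pattern arrays of PTH mice. Among male-pattern arrays of vehicle mice, 3 nonirradiated arrays lay between 10.35 and 10.67 and 2 irradiated arrays between 11.65 and 11.76. Among female-pattern arrays of PTH mice, 3 nonirradiated arrays lay between 10.91 and 11.35 and the single irradiated array was at 12.02. The irradiated vehicle array with a female pattern was at 11.57, and the 2 irradiated PTH arrays with a male pattern were at 11.41 and 12.03. Their nonirradiated groups held no array of the same pattern. With sex as a term in the fit, the difference in vehicle mice was 1.07 (adjusted p = 0.0215 in limma), and that in PTH mice was 0.71 (adjusted p = 0.306).

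Mmp13 was also higher with PTH in nonirradiated mice, without passing the test. The 3 nonirradiated PTH arrays, given above, all lay above the 3 nonirradiated vehicle arrays, a non-overlap on the higher side that 3.21% of genes showed. The difference was 0.60 (SE 0.182), or 1.52-fold, and did not pass in limma (unadjusted p = 0.00619, adjusted p = 0.9996). In this comparison limma called 0% of genes, with 1.79% at an unadjusted p under 0.05. It shares its vehicle arrays with the irradiation comparison, so the 2 differences are not independent.

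In irradiated mice the Mmp13 difference with PTH was 0.16 (SE 0.182, adjusted p = 0.856 in limma), and the groups overlapped because irradiated PTH replicate 3 lay below all irradiated vehicle arrays. Without that array it was 0.37, which did not pass either. Of all genes, 0% were called and 3.81% had an unadjusted p under 0.05. Whether the PTH difference itself changed with irradiation was tested as an interaction, which was -0.44 (SE 0.257, adjusted p = 0.732 in limma), in a comparison with 0% of genes called and 5.49% at an unadjusted p under 0.05. The call in vehicle mice and the missed call in PTH mice are therefore not shown to differ. In order of mean, Mmp13 was at 10.56 ± 0.181 in nonirradiated vehicle, 11.16 ± 0.228 in nonirradiated PTH, 11.66 ± 0.0948 in irradiated vehicle and 11.82 ± 0.354 in irradiated PTH marrow (SD, n = 3). Of the neighbours in that order, only the last pair overlapped.

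**Figure D2:**
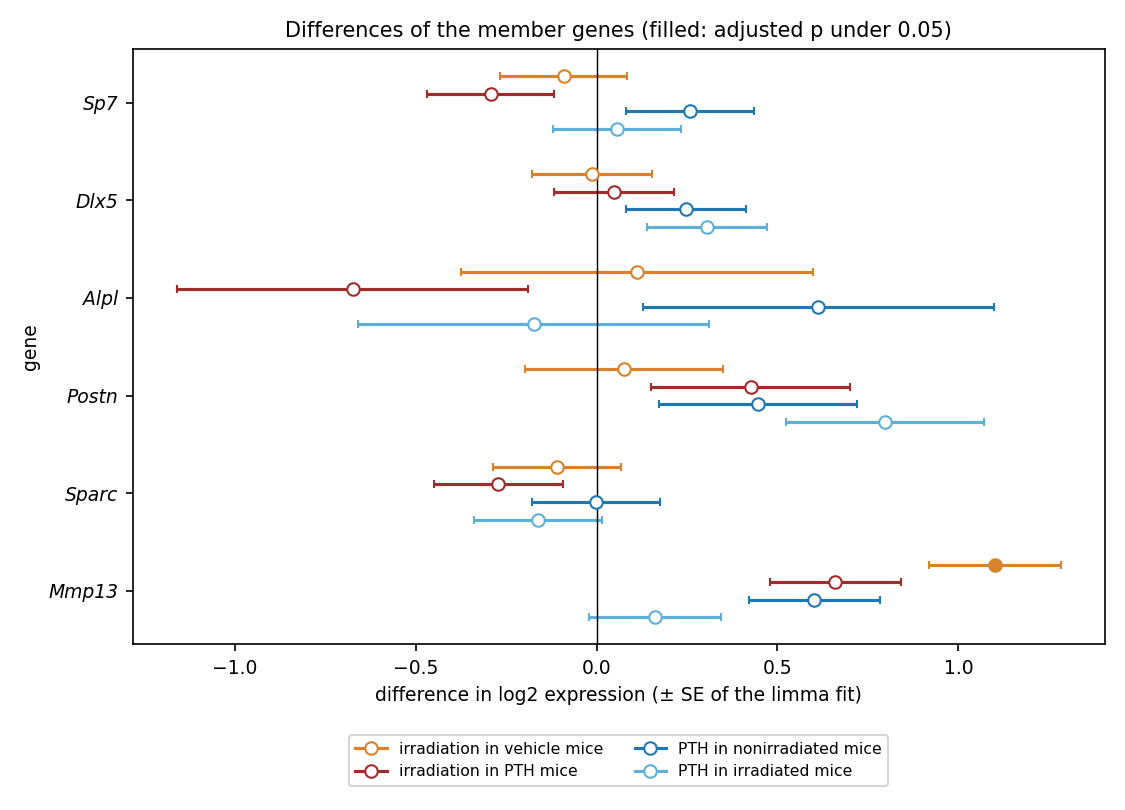
Differences in log2 expression (horizontal axis) of the 6 measured genes in the 4 comparisons between pairs of groups, with the standard error of the limma fit as bars and filled points for adjusted p under 0.05. The filled point is Mmp13 with irradiation in vehicle mice, at 1.10, and the widest bars belong to Alpl.

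Neither transcription factor passed in any of the 7 comparisons. Sp7 read 6.42, 6.45 and 6.55 in nonirradiated vehicle, 7.0001, 6.63 and 6.56 in nonirradiated PTH, 6.36, 6.23 and 6.55 in irradiated vehicle, and 6.62, 6.65 and 6.05 in irradiated PTH marrow. These readings are close to 6.48, the median over the means of all genes, and no detection call is given for them, so small changes of Sp7 may not be measurable. The irradiated PTH arrays held both one of the higher Sp7 values and the lowest. Its nonirradiated PTH arrays lay just above the vehicle arrays, with a difference of 0.26 (SE 0.176), and its irradiation differences were -0.09 in vehicle and -0.29 in PTH mice, none of which passed.

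Dlx5 read 7.22, 7.24 and 7.67 in nonirradiated vehicle, 7.92, 7.37 and 7.58 in nonirradiated PTH, 7.39, 7.33 and 7.38 in irradiated vehicle, and 7.52, 7.85 and 7.65 in irradiated PTH marrow. The irradiated PTH arrays were all above the tight irradiated vehicle arrays, while the nonirradiated groups overlapped. Its difference with PTH was 0.25 (SE 0.166) without and 0.31 (SE 0.166) with irradiation. Averaged over both states it was 0.28 (SE 0.117, unadjusted p = 0.0364, adjusted p = 0.99998 in limma), where 0% of genes were called and 1.26% had an unadjusted p under 0.05. Irradiation differences of Dlx5 were -0.01 in vehicle and 0.05 in PTH mice.

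Postn, a matrix protein of the periosteum and of growing bone, had the largest PTH difference of the 6 genes after irradiation. It read 8.69, 8.63 and 8.71 on the irradiated vehicle arrays and 9.29, 9.65 and 9.49 on the irradiated PTH arrays. All 3 PTH arrays were above all 3 vehicle arrays, as for 5.48% of genes on the higher side. The difference of 0.80 (SE 0.274), or 1.74-fold, did not pass in limma (unadjusted p = 0.0130, adjusted p = 0.844). Its range over the alternative fits was 0.71 to 0.96, and none of them called it.

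Without irradiation, Postn read 8.79, 7.88 and 9.13 with vehicle and 9.48, 8.87 and 8.80 with PTH. The wide vehicle group overlapped the PTH group, and the difference was 0.45 (SE 0.274), which did not pass. Without nonirradiated vehicle replicate 2, the lowest array, it was 0.09. The PTH difference averaged over both states was 0.62 (SE 0.194, unadjusted p = 0.00745, adjusted p = 0.99998 in limma), and the interaction was 0.35 (SE 0.387). Irradiation gave Postn a difference of 0.08 in vehicle and 0.43 in PTH mice, neither of which passed.

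Over the 6 measured members, 5 had a positive difference with PTH in nonirradiated mice and 4 in irradiated mice, with medians of 0.35 and 0.11, against 0.01 over all genes in both. Groups that did not overlap numbered 2 of 6 in each, Sp7 and Mmp13 in nonirradiated and Dlx5 and Postn in irradiated mice, all on the higher side, against 3.21% and 5.48% of all genes. Limma called 0 of 6 in either comparison, where 1 of 6 had an unadjusted p under 0.05, against 1.79% and 3.81% of all genes. With PTH averaged over irradiation limma called 0 of 6, and 3 of 6, Dlx5, Postn and Mmp13, had an unadjusted p under 0.05, against 1.26% of all genes. Mmp13 had 0.38 (SE 0.128, unadjusted p = 0.0117, adjusted p = 0.99998 in limma) in that average. The sex patterns given above differ between vehicle and PTH arrays here too. Irradiation gave medians of 0.03 in vehicle and -0.11 in PTH mice, with 3 of 6 positive in each. Beside this, 13 of 14 osteoclast markers had a positive difference with PTH in nonirradiated mice, with a median of 0.35, and limma called 0 of them, with 1 at an unadjusted p under 0.05. The part of osteoclasts in the members' values was not tested.

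Alpl was the most variable of the genes. It read 7.80, 9.01 and 9.04 in nonirradiated vehicle, 9.63, 9.25 and 8.82 in nonirradiated PTH, 9.27, 8.78 and 8.14 in irradiated vehicle, and 9.02, 9.26 and 7.38 in irradiated PTH marrow. Every group overlapped every other, and the lowest arrays were 1 nonirradiated vehicle and 1 irradiated PTH array. Its SD within groups was 0.71, above that of 99.2% of genes, against 0.21 for the median gene. No difference of Alpl passed: it was 0.11 (SE 0.485) with irradiation in vehicle and -0.67 in PTH mice, and 0.61 with PTH in nonirradiated and -0.17 in irradiated mice. The last of these was 0.41 without irradiated PTH replicate 3.

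Sparc, among the brightest rows of the table, read 13.00, 13.10 and 13.41 in nonirradiated vehicle, 13.23, 13.19 and 13.09 in nonirradiated PTH, 13.12, 13.13 and 12.94 in irradiated vehicle, and 13.10, 13.14 and 12.46 in irradiated PTH marrow. The arrays lay within 0.94 of each other, and 11 of them within a narrower band above irradiated PTH replicate 3. The highest value in the whole table was 14.14, and whether the readings of Sparc neared saturation was not tested. Differences ran from -0.27 (SE 0.177) with irradiation in PTH mice to -0.0006 with PTH in nonirradiated mice, and none passed.

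**Figure D3:**
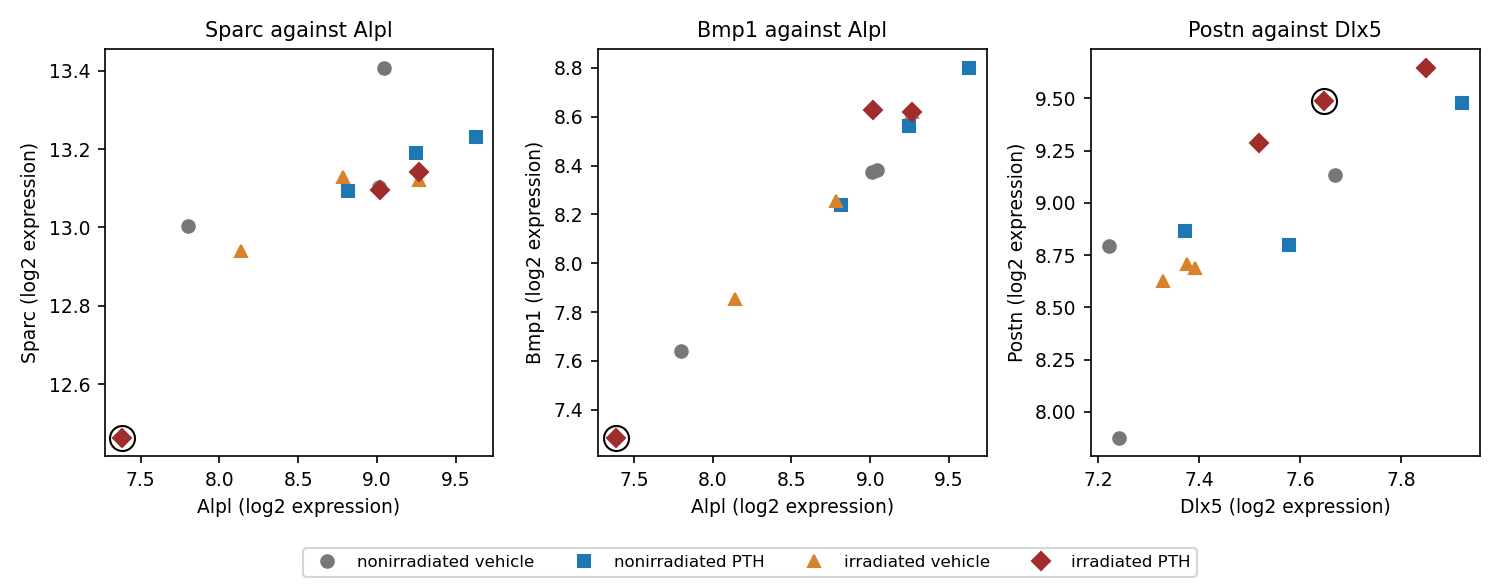
Log2 expression of Sparc against Alpl, Bmp1 against Alpl, and Postn against Dlx5, 1 point per array, with colours and shapes for the groups and a ring around irradiated PTH replicate 3. The ringed array is lowest in the left and middle plots and among the higher ones for Postn and Dlx5.

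The members did not vary as one across arrays. Over the 12 arrays, which share their normalization and differ in range, Pearson's r was 0.82 between Alpl and Sparc, 0.69 between Alpl and Sp7, and 0.83 between Dlx5 and Postn, but 0.01 between Alpl and Postn. Without irradiated PTH replicate 3 these were 0.65, 0.48, 0.83 and 0.34 over 11 arrays. Sp7 had 0.48 with Dlx5, 0.26 with Postn and 0.64 with Sparc, and without that array 0.76, 0.64 and 0.29. Which members went together thus depended on that array. Mmp13 had r of 0.03 with Sp7, 0.09 with Alpl, -0.18 with Sparc, 0.37 with Dlx5 and 0.53 with Postn over the values. Over deviations from the group means, Mmp13 had 0.71 with Sp7, 0.46 with Alpl and 0.70 with Sparc. Without irradiated PTH replicate 3 these were 0.33, -0.18 and 0.18. With Dlx5 and Postn, Mmp13 had 0.44 and 0.45 over deviations, and 0.62 and 0.71 without that array. All of these are descriptions.

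Likeness was read as the highest r over all measured genes, and says nothing of function. The genes most like Alpl over the 12 arrays were Bmp1, a protease that trims procollagen (r = 0.99), Map4k4, a protein kinase (0.97), and Runx1, a blood-forming relative of Runx2 (0.96). Col1a1 had 0.93 with Alpl and 0.91 with Sparc, and Ctsk, the collagen-degrading protease of osteoclasts, 0.91 with Alpl. Each of these genes had its lowest value on irradiated PTH replicate 3, where Bmp1 was 7.29, Col1a1 9.15, Runx1 8.43 and Ctsk 10.59. Their r was not taken without that array, so its part in this likeness was not tested. Most like Sparc were Nptn (0.97), Nfe2l2, a regulator of oxidative stress genes (0.96), and Stk24 (0.95).

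Most like Sp7 were Tmem119, a membrane protein of osteoblasts (0.91), P4ha1, a collagen prolyl hydroxylase (0.895), and Npff (0.89). For Dlx5 they were Cd109 (0.86), Ttc26 (0.83) and Nyap2 (0.83), and for Postn Ttc26 (0.87), Npdc1 (0.85) and Edil3, a matrix protein (0.84). For Mmp13 they were Adarb1, an RNA-editing enzyme (0.93), Akr1b8, an aldo-keto reductase (0.92), and Ccn1, a matricellular protein (0.91), with 0.43, 0.80 and 0.53 over deviations from the group means. The 8 genes most like the mean of the 6 standardised members were Tnc, the matrix protein tenascin C (0.97), Fat3, Tmtc2, Ccn4, Col12a1, Gli3, Oscar and Fmn1, down to 0.91. Tnc lay between 9.32 in irradiated PTH replicate 3 and 10.66 in irradiated PTH replicate 2, and Ccn4 between 7.51 in irradiated PTH replicate 3 and 8.57 in nonirradiated PTH replicate 1.

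Mmp13 lies at the edge of a cluster of metalloproteinase genes, and its neighbours were read by their order in RefSeq's table of GRCm38.p6. Of its 12 nearest protein-coding neighbours, 4 on one side and 8 on the other, all were measured and 1 passed with irradiation averaged over treatments. This was Mmp27, another metalloproteinase gene, with 0.91 (SE 0.152, adjusted p = 0.00333 in limma). It read 6.30 to 7.33 on the 6 nonirradiated arrays and 7.51 to 7.84 on the 6 irradiated ones. Next to Mmp13, the macrophage elastase gene Mmp12 had 0.51 (adjusted p = 0.0620) and the gene before it, Dcun1d5, 0.46 (adjusted p = 0.548). The neutrophil collagenase gene Mmp8 had -0.51 (adjusted p = 0.0547), and stromelysin 1, Mmp3, -0.20 (adjusted p = 0.322). Position was chosen as a criterion after the values of Mmp13 were known.

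**Figure D4:**
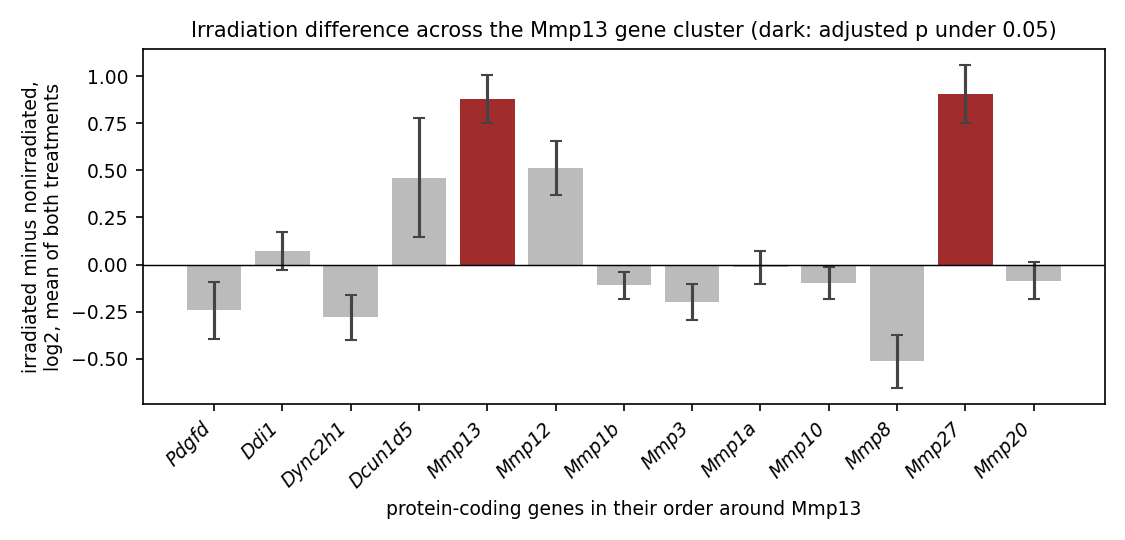
Irradiated minus nonirradiated log2 expression, averaged over both treatments (vertical axis, bars with standard errors of the limma fit), for Mmp13 and its 12 nearest protein-coding neighbours in their order along the chromosome. The dark bars, adjusted p under 0.05, are Mmp13 at 0.88 and Mmp27 at 0.91.

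A list of 16 measured metalloproteinases and their inhibitors held the neighbours Mmp3, Mmp8 and Mmp12, but neither Mmp13 nor Mmp27. Of these 16 genes, 0 passed in any of the 7 comparisons. With irradiation in vehicle mice their median was 0.19, with 11 positive, against a median of -0.03 over all genes. The median of housekeeping genes there was 0.15, with 10 of 11 positive. In the list 1 gene had an unadjusted p under 0.05, and the share over all genes is not given here. Mmp14, the membrane protease that activates other collagenases, had 0.44 (adjusted p = 0.382), and Mmp9, gelatinase B, -0.20 (adjusted p = 0.895). With irradiation in PTH mice the median of the 16 genes was -0.08, with 5 positive. Housekeeping genes had a median of -0.16 in that comparison, with 3 of 11 positive. Averaged over treatments the median of the 16 genes was 0.01, with 8 positive.

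Few genes of the other bone lists passed. Of 14 osteoblast transcription factors, 1 fell with irradiation in PTH mice, Lef1, a mediator of Wnt signals that B-cell precursors also express, with a difference of -1.62 (SE 0.288, adjusted p = 0.0108 in limma). It missed the threshold without nonirradiated PTH replicate 1 (adjusted p = 0.0510), and with sex as a term it was -1.43 (adjusted p = 0.111). Averaged over treatments Lef1 had -1.25 (SE 0.203, adjusted p = 0.00265), and this fall was called in 23 of 23 alternatives, with a highest adjusted p of 0.0119. Of 25 BMP and Wnt genes, 1 rose with irradiation averaged over treatments, Sfrp4, a secreted Wnt antagonist, by 0.73 (SE 0.130, adjusted p = 0.00495). Its irradiated arrays lay between 8.72 and 9.39 and its nonirradiated ones between 8.04 and 8.53.

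Of 21 osteoblast matrix genes, 1 rose with irradiation in vehicle mice, Smoc1, a secreted relative of Sparc that binds calcium, by 0.69 (SE 0.126, adjusted p = 0.0124 in limma). It read 6.15 to 6.33 on the nonirradiated and 6.86 to 7.01 on the irradiated vehicle arrays. The call ended without nonirradiated vehicle replicate 3 (adjusted p = 0.0540), irradiated vehicle replicate 1 (0.0596) or 2 (0.0683), and with arrays centred on housekeeping genes (0.0966). Averaged over treatments it was 0.53 (adjusted p = 0.00350). Col1a1 had 0.04 with irradiation in vehicle and -0.62 in PTH mice, and Ibsp, bone sialoprotein, 0.75 with PTH in irradiated mice (adjusted p = 0.844). Pth1r, the PTH receptor, ranged from 6.38 to 7.26 over the arrays.

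Of 11 mineralisation genes, 1 rose, Mgp, which encodes matrix Gla protein, an inhibitor of calcification made in cartilage and vessel walls. It read 8.69, 7.995 and 7.62 in nonirradiated vehicle and 9.61, 9.91 and 10.71 in irradiated vehicle marrow. The groups did not overlap. Mgp rose by 1.97 (SE 0.315, adjusted p = 0.00631 in limma) in vehicle and by 2.26 (SE 0.315, adjusted p = 0.00261) in PTH mice, and both calls were kept without any 1 array.

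Of 13 collagen-processing genes, 0 passed in any comparison. All 13 had positive differences with PTH in nonirradiated mice (median 0.29, 0 at an unadjusted p under 0.05), against 3 of 13 in irradiated mice (median -0.15, 0 at an unadjusted p under 0.05). For example, Pcolce, an enhancer of procollagen trimming, had 0.59 and -0.31, and Loxl1, a lysyl oxidase, 0.29 and -0.21. Some lists of other genes had like counts: 10 of 10 neutrophil markers were positive in nonirradiated and 3 of 10 in irradiated mice. Stromal markers had 12 and 3 of 13, endothelial markers 9 and 2 of 10, and housekeeping genes 8 and 2 of 11. B-lineage markers had 8 and 2 of 11, and metalloproteinases and their inhibitors 13 and 5 of 16. Other lists went another way. Megakaryocyte markers had 7 and 6 of 7, osteoclast markers 13 and 10 of 14, and chondrocyte markers 3 and 11 of 14. Erythroid markers had 1 and 3 of 8, muscle markers 1 and 2 of 10, and adipocyte markers 3 and 0 of 9. These counts carry no test of their own. The mean of the collagen-processing list was 7.69 to 8.57 on the irradiated PTH arrays, against 7.93 to 8.66 on all others. Of this list, Bmp1 read 8.63, 8.62 and 7.29 on the irradiated PTH arrays and 8.62, 8.26 and 7.85 on the irradiated vehicle arrays. P4ha1 read 8.21, 8.25 and 7.88, against 8.08, 7.91 and 8.23. Both were lowest on irradiated PTH replicate 3, and the counts were not taken without that array.

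Markers of other cells also changed with irradiation. In irradiated vehicle marrow 9 of 11 B-lineage markers fell, with list means of 9.26 to 9.62 in nonirradiated and 7.31 to 7.67 in irradiated vehicle arrays, and 5 of 9 adipocyte markers rose, with list means of 7.73 to 8.05 and 9.001 to 9.12. In PTH mice 10 of 11 B-lineage markers fell and 4 of 9 adipocyte markers rose with irradiation. Among 14 chondrocyte markers limma called 0 in vehicle mice, where 2 had an unadjusted p under 0.05. Their list means were 6.22 to 6.63 and 6.46 to 6.53. In PTH mice, with list means of 6.10 to 6.47 and 6.56 to 6.71, 1 of 14 rose with irradiation, Ucma, a secreted cartilage protein, by 0.81. Averaged over treatments 3 of 14 rose, Ucma by 0.53, Comp, a cartilage matrix protein, by 0.53, and Matn3, another, by 0.47. Col10a1, which marks hypertrophic chondrocytes, a further source of Mmp13, was 7.97 ± 0.241 without and 8.17 ± 0.392 with irradiation in vehicle mice, and 8.24 ± 0.485 and 8.69 ± 0.421 in PTH mice (SD, n = 3). Its differences of 0.20 and 0.45 did not pass in limma (adjusted p = 0.812 and 0.527). Of 14 osteoclast markers limma called 0 with irradiation in vehicle mice, with 0 at an unadjusted p under 0.05 and list means of 8.001 to 8.43 and 8.12 to 8.32. In PTH mice it also called 0 of 14, with 6 positive (median -0.07) and 3 at an unadjusted p under 0.05. Osteoclast list means there were 8.36 to 8.74 and 7.88 to 8.65. Of 10 endothelial markers, limma called 0 in vehicle mice, where 9 were positive and 6 had an unadjusted p under 0.05 (median 0.41), and 1 rose averaged over treatments. Endothelial list means were 7.66 to 7.95 in nonirradiated and 8.08 to 8.41 in irradiated vehicle arrays. Of 7 megakaryocyte markers, 4 fell averaged over treatments, and list means were 8.86 to 9.27 and 8.42 to 8.57 in vehicle arrays. Of 13 stromal markers, 12 were positive in vehicle mice (median 0.20), 4 had an unadjusted p under 0.05 and 1 was called, on the lower side. Stromal list means were 7.80 to 7.88 and 7.91 to 8.20. In PTH mice 6 of 13 stromal markers were positive with irradiation, with a median of -0.06. Beside these, 10 of 11 housekeeping genes were positive with irradiation in vehicle mice, with a median of 0.15. For the irradiation comparisons the share of all genes at an unadjusted p under 0.05 is not given here. The unadjusted counts above can therefore not be read as an excess. The part of these cell types in the rise of Mmp13 was not tested, and a log2 scale has no level at which a marker is absent.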

How the data were processed

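The deposited table holds log2 expression of 35556 array rows in 12 samples, made by the authors, with RMA, affy and limma named in the submitters' processing notes, without version or role. Per the labels' protocols, 100 ng of RNA gave biotinylated cDNA. The platform annotation gave 1 symbol to 21789 rows, several to 1621, which were left out, and none to 12146. For a gene with several rows, the row with the highest mean was used, which left 19938 genes.

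A model of 4 group means was run in limma 3.58.1 under R 4.3.3 (lmFit and eBayes, 8 residual degrees of freedom), and p-values were adjusted by Benjamini-Hochberg over all genes, with 0.05 as the threshold. The 7 comparisons were irradiation within each treatment and averaged, PTH within each irradiation state and averaged, and their interaction. The script was tested on simulated data. The number of arrays limits the precision.

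Named besides the members were list genes called in a comparison or, in a list with none, the 2 with the smallest p, the 3 genes most like each member (8 for their mean), Col1a1 and Pth1r. Ctsk, Ibsp, Mmp14, Mmp9, Col10a1 and the neighbours of Mmp13 were added for their roles or position after their values were seen. The members and lists were chosen with earlier results of these data known. Alternatives tried were 2 other variance models, array weights, a fit of only the groups compared, quantile, median and housekeeping scaling, a filter on dim genes, mean rows per gene, sex and replicate number as terms, and leaving out arrays.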

Additional observations from a re-analysis of the deposited data

How the results depend on the processing

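The count of called members kept its value under the alternatives run in 6 of 7 comparisons: 1 of 6 (Mmp13) for irradiation in vehicle mice and for irradiation averaged over treatments, and 0 for both PTH comparisons, PTH averaged over irradiation and the interaction. For irradiation in PTH mice it moved from 0 to 1 (Mmp13) with array weights, with arrays centred on housekeeping genes and without both narrow-range arrays, and leaving out 1 array gave 0 to 1. The array that raised it was irradiated PTH replicate 3. In vehicle mice Mmp13 was called in 24 of 24 alternatives, with differences of 0.95 to 1.25 and adjusted p of 0.000167 to 0.0460. In PTH mice it was called in 4 of 24, at 0.75 with array weights (adjusted p = 0.00341), 0.75 with housekeeping centring (0.0444), 0.86 without both narrow-range arrays (0.0177) and 0.86 without irradiated PTH replicate 3, and adjusted p reached 0.347 when 1 array was left out.

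Signs turned only in differences that no fit called. With array weights, irradiation gave Dlx5 0.013 in vehicle mice, -0.030 in PTH mice and -0.0089 on average, PTH gave Sparc 0.029 in nonirradiated and Alpl 0.25 in irradiated mice, and the interaction was -0.043 for Dlx5 and -0.00073 for Postn. Repeated quantile normalization gave Sparc 0.034 with PTH in nonirradiated mice. Housekeeping centring, which moved the median of all genes to -0.18 for irradiation in vehicle mice, 0.17 for PTH in irradiated mice and 0.26 for the interaction, gave irradiation differences of -0.041 for Alpl and -0.078 for Postn in vehicle mice and -0.013 for Dlx5 on average, and interactions of 0.041 for Sp7 and 0.081 for Sparc. Centring on the median gave 0.041 for Dlx5 with irradiation in vehicle mice and 0.014 for Sparc with PTH in nonirradiated mice. With sex as a term, irradiation gave Dlx5 0.020 and Alpl -0.14 in vehicle mice and Dlx5 -0.015 in PTH mice, PTH averaged over irradiation gave Alpl -0.16, and the interaction was -0.035 for Dlx5 and 0.029 for Sparc. Without both narrow-range arrays, irradiation gave Dlx5 0.13 and Sparc 0.0087 in vehicle mice and Alpl 0.12 on average, PTH gave Sparc 0.12 in nonirradiated mice, Alpl 0.41 and Sparc 0.056 in irradiated mice and Sparc 0.086 on average, and the interaction was -0.074 for Dlx5. The causes were not tested.

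Leaving out 1 array in turn, irradiation in vehicle mice ranged from -0.090 to 0.13 for Dlx5, -0.30 to 0.41 for Alpl, -0.29 to 0.34 for Postn and -0.19 to 0.0087 for Sparc. Irradiation in PTH mice ranged from -0.077 to 0.20 for Dlx5, and irradiation averaged over treatments from -0.045 to 0.092 for Dlx5 and -0.49 to 0.012 for Alpl. PTH in nonirradiated mice ranged from -0.084 to 0.12 for Sparc, PTH in irradiated mice from -0.048 to 0.25 for Sp7, -0.53 to 0.41 for Alpl and -0.28 to 0.056 for Sparc, and PTH averaged over irradiation from -0.14 to 0.027 for Sparc. The interaction ranged from -0.086 to 0.21 for Dlx5 and -0.28 to 0.056 for Sparc.

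No label ties the replicate numbers to shared mice or batches. Deviations of same-numbered arrays in different groups correlated from -0.65 to 0.60 (median 0.18, 18 pairs). Other numbers gave nearly the same range, -0.60 to 0.63, with a median of -0.08 (36 pairs). Of 12 arrays, 7 correlated best with their own number, at most a hint of pairing that the design does not give. Both narrow-range arrays are also numbered replicate 3. With the replicate block, Mmp13 had 1.10 (adjusted p = 0.0113 in limma) with irradiation in vehicle mice and 0.66 (adjusted p = 0.0916) in PTH mice, and no member's call changed, while the calls over all genes went from 442 to 500 and from 485 to 672. With sex as a term they were 304 and 200, and without irradiated PTH replicate 3 they were 762 and 396. With 3 arrays a group, 12 in all, differences near the median standard error of 0.166 could not be called.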
